A study of Homo sapiens with 6 samples.

Results

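The insulin-like growth factor (IGF) binding proteins IGFBP1 to IGFBP7, the receptors IGF1R and IGF2R and the receptor substrate IRS2 make up a set of 10 genes. Their probes were found by accession, as the probes designed on a RefSeq transcript of one of these genes. This gave 10 probes of the 50599 on the array, 1 for each gene, and 9 of them had a signal that could be tested. RNA came from MDA-MB-231, a human triple-negative breast cancer cell line with mesenchymal features. Cells were transfected with the precursor of hsa-miR-205-5p, the precursor of hsa-miR-214-3p or a scrambled microRNA as control, at 30 nM, and RNA was measured after 72 h. Each of the 3 groups had 2 arrays, all 6 on 1 slide. Nothing in the labels says whether replicates came from separate cultures, so the p-values measure only the spread between these samples, which may be technical. The set was chosen by a measured value, the rise of IGFBP3 with hsa-miR-214-3p against the control, and by family membership. For that reason the differences of the members in that contrast are a description, without a test. The comparison of hsa-miR-205-5p with the control was tested, and it shares both control arrays with the other one.

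IGF1 and IGF2 are secreted growth factors that signal through IGF1R, a receptor tyrosine kinase, and IRS proteins carry that signal to the PI3K-AKT and MAPK pathways. The binding proteins are secreted and hold most IGF outside cells in complexes, which can keep it from the receptor or deliver it there, and several of them also act without IGF. IGF2R, the cation-independent mannose 6-phosphate receptor, takes up IGF2 for degradation and sorts lysosomal enzymes. In breast cancer cells, IGFBP3 and IGFBP4 are mostly studied as restraints on IGF signaling.

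A microRNA binds messenger RNAs mainly through its seed, bases 2 to 8 from the 5′ end, and usually lowers them. The mature sequences shown are those of the microRNAs whose precursors were put into the cells. They come from RefSeq (GRCh38.p14), with the seed in capitals. Both genes lie on chromosome 1, with hsa-miR-205-5p at chr1:209432166-209432187 on the plus strand and hsa-miR-214-3p at chr1:172138816-172138837 on the minus strand.
hsa-miR-205-5p: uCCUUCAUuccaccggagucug
hsa-miR-214-3p: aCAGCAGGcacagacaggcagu
A perfect DNA-letter match to the seed reads ATGAAGG for hsa-miR-205-5p and CCTGCTG for hsa-miR-214-3p, so the seeds differ. Transcript sequences of the members were not analysed here for such sites.

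Signals are given as normalized log2 signal, which is log2 of the background-subtracted intensity of a probe minus the array's 75th percentile on the same scale. A step of 1 is a doubling. Between 35.4% and 42.2% of the 58717 spots per array passed the scanner software’s background test, and 0 spots were saturated. The control arrays differed more from each other (root mean square difference 0.67 over 18464 kept probes) than the hsa-miR-205-5p arrays (0.51) or the hsa-miR-214-3p arrays (0.34). As markers of the cell line, VIM, CD44, FN1 and AXL were well above background on all 6 arrays, and no probe of the hormone receptors ESR1 and PGR was on any. Of the other markers that should be low or absent in the line, ERBB2, CDH1 and EPCAM were well above background on all 6 arrays, and PTPRC, a leukocyte marker, on 2 at most. On the control arrays CDH1 was at −1.11 and −1.34, EPCAM at 0.35 and 0.83 and ERBB2 at 4.26 and 4.19, against 7.64 and 7.58 for VIM.

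IGFBP3, the main carrier of IGF in blood, stood apart from the rest of the family. It had a normalized log2 signal of 1.13 and 1.57 on the control arrays, 1.42 and 1.43 with hsa-miR-205-5p, and 3.54 and 3.51 with hsa-miR-214-3p. Both hsa-miR-214-3p arrays were above all other arrays, and the hsa-miR-205-5p arrays lay between the control arrays. The log2 fold change with hsa-miR-214-3p was 2.17 (standard error 0.20), or 4.51-fold, the 23rd highest of the 18464 probes, as a description of the value that chose the set. Without scrambled control replicate 1 it was 1.95, and without replicate 2 it was 2.40. With hsa-miR-205-5p the log2 fold change was 0.07 (95% interval −0.43 to 0.57, limma, adjusted p = 0.813), and its sign turned when arrays were scaled to the median (−0.32).
The IGFBP3 probe was printed 10 times on each array, which shows the error of the measurement within an array. The spots had an SD between 0.04 and 0.21 on the log2 scale. The lowest spot on an hsa-miR-214-3p array was at 3.35, and the highest on any other array at 1.78. On the control arrays the spots ran from 0.80 to 1.31 in replicate 1 and from 1.31 to 1.78 in replicate 2.

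**Figure D1:**
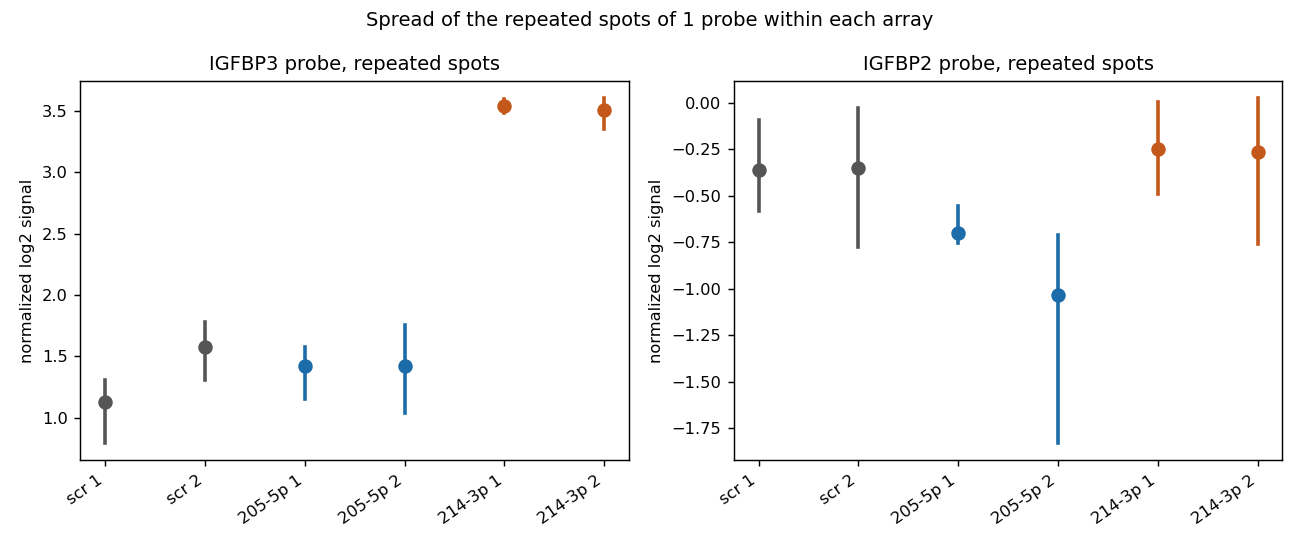
Normalized log2 signal of the repeated spots of the IGFBP3 probe (left) and the IGFBP2 probe (right), by array (scr, scrambled control; precursors labelled by their numbers; 1 and 2, replicates). Points are means over spots and vertical lines run from the lowest to the highest spot; the IGFBP3 spots with hsa-miR-214-3p lie above all others, while those of IGFBP2 overlap between the control and hsa-miR-214-3p.

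IGFBP4, which binds IGF and releases it when the protease PAPPA cuts it, fell with hsa-miR-205-5p. Its normalized log2 signal was 4.85 and 4.97 in the scrambled control, 3.57 and 3.41 with hsa-miR-205-5p, and 4.64 and 4.58 with hsa-miR-214-3p. The 3 groups did not overlap, and the hsa-miR-205-5p arrays were the lowest. The mean fell from 4.91 ± 0.08 (SD, n = 2) to 3.49 ± 0.12 (SD, n = 2), a log2 fold change of −1.42 (standard error 0.16, limma, adjusted p = 0.00914), or 2.67-fold. Without hsa-miR-205-5p replicate 2 the log2 fold change was −1.33 and the adjusted p 0.0591, and limma then called 0 of all probes in this comparison. With no filter on dim probes the adjusted p was 0.0537. With hsa-miR-214-3p it was −0.30 (standard error 0.16).

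IGFBP1 lies next to IGFBP3 on chromosome 7, with 0 annotated genes between them in the RefSeq table, and codes for a binding protein best known from liver and decidua. It had a normalized log2 signal of 4.80 and 4.47 in the scrambled control, 3.90 and 3.54 with hsa-miR-205-5p, and 5.10 and 5.15 with hsa-miR-214-3p. The hsa-miR-205-5p arrays were below the control and the hsa-miR-214-3p arrays above it, without overlap. With hsa-miR-205-5p the log2 fold change was −0.92 (standard error 0.21, limma, adjusted p = 0.0374), which passed the adjusted p but not the 2-fold limit. With hsa-miR-214-3p it was 0.49 (standard error 0.21), against 2.17 for its neighbor IGFBP3. The value for IGFBP1 was 0.32 without scrambled control replicate 2, 0.66 without replicate 1 and 0.14 with normexp.

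IGFBP6, a binding protein that prefers IGF2, had a normalized log2 signal of 5.12 and 4.98 in the scrambled control, 4.24 and 4.36 with hsa-miR-205-5p, and 4.95 and 5.08 with hsa-miR-214-3p. The hsa-miR-205-5p arrays were the lowest, and the other groups overlapped. Its log2 fold change with hsa-miR-205-5p was −0.75 (standard error 0.16, limma, adjusted p = 0.0327), again under the 2-fold limit. With hsa-miR-214-3p it was −0.04 (standard error 0.16), and 0.031 without hsa-miR-214-3p replicate 1 or 0.033 without scrambled control replicate 1. It was −0.19 with normexp and −0.20 under median scaling.

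IGFBP2, a binding protein often raised in tumors, was below the 75th percentile on all arrays and did not pass the test as reported here. Its normalized log2 signal was −0.36 and −0.35 in the scrambled control, −0.70 and −1.04 with hsa-miR-205-5p, and −0.25 and −0.27 with hsa-miR-214-3p. The hsa-miR-205-5p arrays were the lowest, with the widest spread of the 3 groups, and on replicate 2 only 6 of the 9 spots used were well above background. The log2 fold change was −0.51 with hsa-miR-205-5p (95% interval −0.96 to −0.06, limma, adjusted p = 0.101) and 0.10 with hsa-miR-214-3p (standard error 0.18). The former was −0.09 with normexp background correction, but −0.90 under median scaling and −0.88 in the deposited table, where it passed the adjusted p (limma, 0.0425 and 0.0412) at less than 2-fold. The latter turned to −0.067 and −0.17 under the same settings, median scaling and the deposited table.
IGFBP7, which binds IGF only weakly and is found in the matrix around cells, had a normalized log2 signal of 4.53 and 4.22 in the scrambled control, 4.72 and 4.64 with hsa-miR-205-5p, and 4.62 and 4.56 with hsa-miR-214-3p. Both precursor groups were above the control arrays by a gap of 0.11 and 0.03, smaller than the difference between the control replicates. The log2 fold change was 0.30 with hsa-miR-205-5p (95% interval −0.14 to 0.74, limma, adjusted p = 0.264), turning to −0.09 under median scaling, and 0.21 with hsa-miR-214-3p (standard error 0.17). Without scrambled control replicate 2 these were 0.15 and 0.060, and without replicate 1 they were 0.45 and 0.36. With normexp the value for hsa-miR-214-3p was 0.048.
IGFBP5, the neighbor of IGFBP2 on chromosome 2, was not well above background on any array, with values between −4.79 and −3.73. It was not tested, and no fold is given for it.

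**Figure D2:**
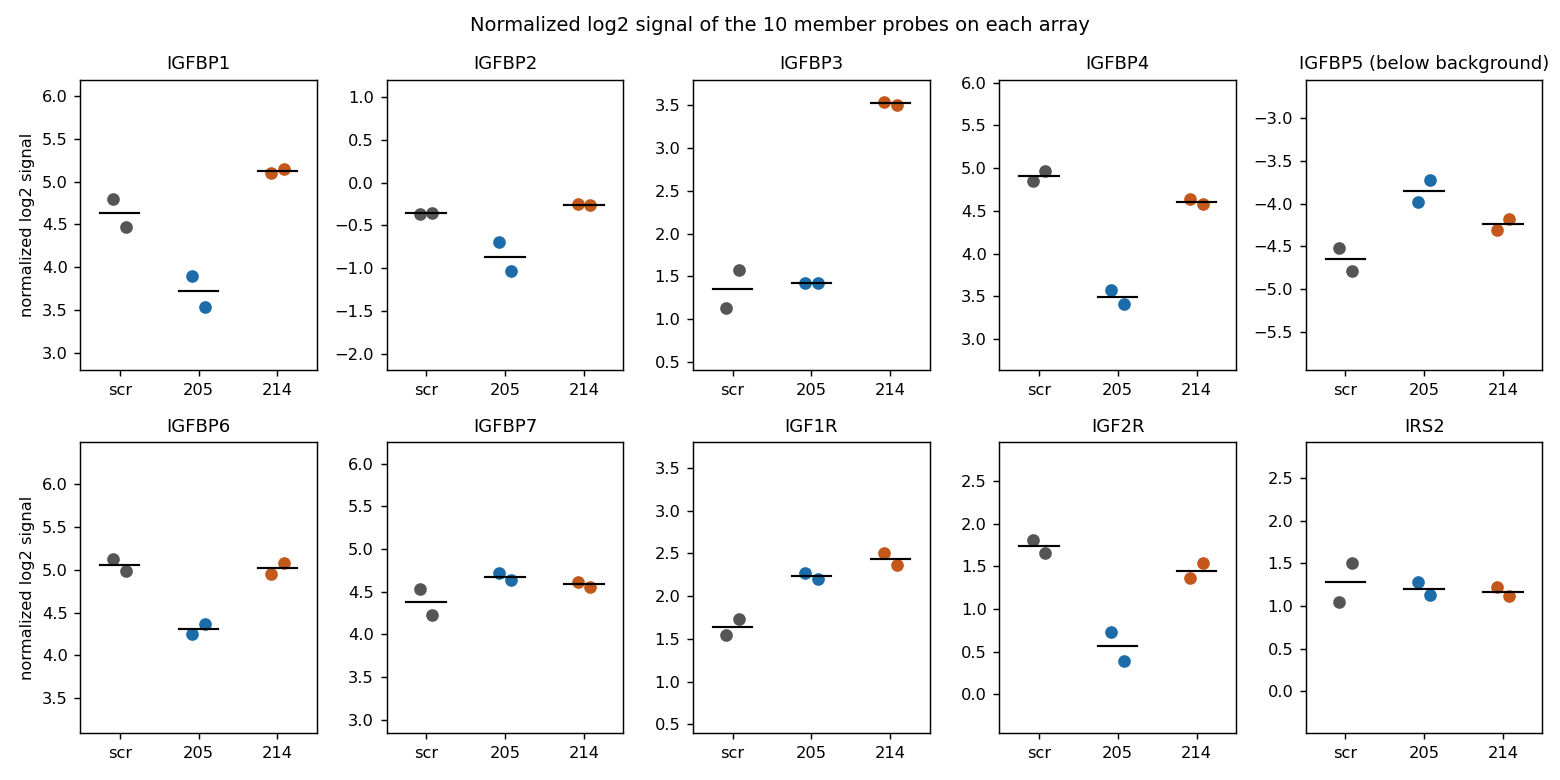
Normalized log2 signal (vertical axis, 1 unit is a doubling) of each member on the 2 arrays of each group (points; scr, scrambled control; the precursors are labelled by their numbers), with the group mean as a line. All panels span the same range of log2 units; IGFBP3 is high only on the hsa-miR-214-3p arrays, and IGFBP4, IGF2R, IGFBP1 and IGFBP6 are lowest on the hsa-miR-205-5p arrays.

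IGF2R was the other member that fell with hsa-miR-205-5p. Its normalized log2 signal was 1.81 and 1.66 in the scrambled control, 0.73 and 0.40 with hsa-miR-205-5p, and 1.36 and 1.54 with hsa-miR-214-3p. The hsa-miR-205-5p arrays were below all others, and the hsa-miR-214-3p arrays lay between them and the control. The mean fell from 1.73 ± 0.11 (SD, n = 2) to 0.56 ± 0.24 (SD, n = 2), a log2 fold change of −1.17 (standard error 0.19, limma, adjusted p = 0.0174), or 2.25-fold. The fit on only the 4 arrays compared gave an adjusted p of 0.0598, no filter on dim probes gave 0.0794, and normexp background correction took the change under 2-fold (−0.92). With hsa-miR-214-3p the log2 fold change was −0.28 (standard error 0.19).
IGF1R, the signaling receptor for both IGFs, had a normalized log2 signal of 1.54 and 1.73 in the scrambled control, 2.27 and 2.20 with hsa-miR-205-5p, and 2.50 and 2.36 with hsa-miR-214-3p. Every precursor array was above both control arrays. The log2 fold change with hsa-miR-205-5p was 0.60 (95% interval 0.19 to 1.01), with a limma adjusted p of 0.0583 that missed the threshold. It was 0.21 under median scaling (adjusted p = 0.549) and 0.31 with normexp, while quantile normalization gave 0.66 and an adjusted p of 0.0391, and the stricter filter an adjusted p of 0.0389, still under 2-fold. With hsa-miR-214-3p it was 0.79 (standard error 0.16), and 6.45% of all kept probes had a higher one. With normexp it was 0.51 and under median scaling 0.63.
IRS2, the adaptor that links the receptor to PI3K, had a normalized log2 signal of 1.05 and 1.50 in the scrambled control, 1.28 and 1.12 with hsa-miR-205-5p, and 1.22 and 1.11 with hsa-miR-214-3p. All precursor arrays lay between the control arrays. The log2 fold change with hsa-miR-205-5p was −0.08 (95% interval −0.59 to 0.44, limma, adjusted p = 0.813) and with hsa-miR-214-3p −0.11 (standard error 0.21), or 0.12 without scrambled control replicate 2.

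Counted together, 2 of the 9 members tested fell with hsa-miR-205-5p (IGFBP4 and IGF2R, limma), while 8.05% of all kept probes were called lower and 4.14% higher. No member was called higher by limma, and 0 were at an unadjusted p or by the methods' t-test either. The groups did not overlap for 7 of the 9 members, 5 lower and 2 higher, and for 62.3% of all kept probes, 28.7% lower and 33.5% higher. The median log2 fold change of the members was −0.51, against 0.05 over all kept probes. The epithelial genes CDH1 and EPCAM moved with the same precursor. They rose by a log2 fold change of 1.97 and 2.40 (limma, adjusted p = 0.00797 and 0.00885), VIM, CD44, FN1 and AXL were not called, and the part of such a shift in the members' changes was not tested. In bulk RNA, fewer cells with a transcript and less of it in each cell cannot be told apart.
With hsa-miR-214-3p, 1 of the 9 members, IGFBP3, was at least 2-fold from the control. The other 8 members lay between −0.30 and 0.79, and none of them was 2-fold away, as 8.09% of all kept probes were. Groups did not overlap for 7 of the 9, 2 lower and 5 higher, and for 55.4% of all kept probes, 28.6% lower and 26.8% higher. Since this contrast chose the set, nothing is read from these counts.

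**Figure D3:**
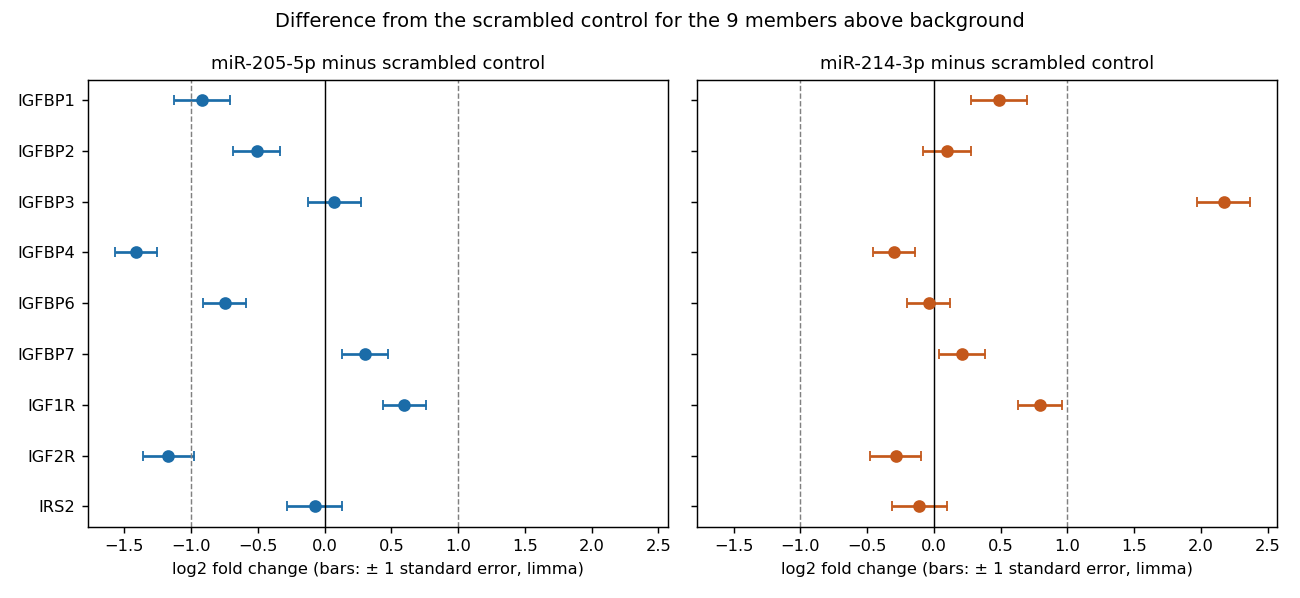
Log2 fold change against the scrambled control (horizontal axis) of the 9 members above background, for hsa-miR-205-5p (left) and hsa-miR-214-3p (right). Points are limma estimates from 2 arrays per group with bars of 1 standard error, and dashed lines mark 2-fold; IGFBP4 and IGF2R lie past the line on the left, and IGFBP3 alone on the right.

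The precursors were also set against each other, which used the same arrays. Among the 8 members other than IGFBP3, 2 were lower with hsa-miR-205-5p than with hsa-miR-214-3p (limma), where 11.6% of all kept probes were lower and 8.37% higher. IGFBP1 differed by −1.41 (standard error 0.21, limma, adjusted p = 0.00904), or 2.66-fold, and IGFBP4 by −1.12 (standard error 0.16, limma, adjusted p = 0.00809), or 2.17-fold. Without hsa-miR-214-3p replicate 2 the differences were −1.39 and −1.14 and neither was called (limma, adjusted p = 0.0767 and 0.0765), in a fit that called 0 of all kept probes. Without replicate 1 they were −1.43 and −1.09 (0.067 and 0.0763). IGF2R and IGFBP6 passed the adjusted p at less than 2-fold, with differences of −0.89 and −0.71 (limma, adjusted p = 0.0231 and 0.0259). Under median scaling IGF2R was called, at −1.11 (limma, adjusted p = 0.0188). IGF1R differed by −0.20 (95% interval −0.61 to 0.21), IGFBP7 by 0.09 (−0.35 to 0.53) and IRS2 by 0.03 (−0.48 to 0.55), and none of these passed the test. IGFBP2 missed the threshold at −0.61 (limma, adjusted p = 0.0508), and with normexp it was −0.15 (adjusted p = 0.347). At less than 2-fold it passed the adjusted p with quantile normalization (−0.64, limma, 0.0446) and with the stricter filter (limma, 0.0352). With the replicate number as a block it did not (limma, 0.0755). For IGFBP3 the difference was −2.10, given as a description. The groups did not overlap for 8 of the 9 members, IRS2 being the exception, and for 78.3% of all kept probes.

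Promoter sequences are shown for IGFBP3, IGFBP4 and IGF2R, the members that differed at least 2-fold from the control, so that the letters in front of these genes can be compared. They are the 250 bases before the annotated start in RefSeq (GRCh38.p14), read 5′ to 3′ on the strand of the gene. Capitals mark the GC box GGGCGG and the TATA box TATAAA, searched on both strands. Only exact matches were sought, so other forms of either box are not marked. The window of IGFBP3 is chr7:45921273-45921522 on the minus strand, that of IGFBP4 chr17:40443200-40443449 on the plus strand and that of IGF2R chr6:159968832-159969081 on the plus strand.
IGFBP3: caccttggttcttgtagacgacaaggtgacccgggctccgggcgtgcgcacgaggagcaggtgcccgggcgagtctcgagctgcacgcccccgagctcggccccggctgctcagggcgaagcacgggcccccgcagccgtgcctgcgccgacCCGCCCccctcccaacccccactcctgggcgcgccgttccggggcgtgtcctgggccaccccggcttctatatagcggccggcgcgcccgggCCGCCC
IGFBP4: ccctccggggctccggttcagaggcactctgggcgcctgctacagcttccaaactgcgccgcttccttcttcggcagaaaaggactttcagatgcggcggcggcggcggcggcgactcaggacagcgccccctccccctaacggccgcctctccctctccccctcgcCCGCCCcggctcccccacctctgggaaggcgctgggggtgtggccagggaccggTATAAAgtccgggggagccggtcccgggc
IGF2R: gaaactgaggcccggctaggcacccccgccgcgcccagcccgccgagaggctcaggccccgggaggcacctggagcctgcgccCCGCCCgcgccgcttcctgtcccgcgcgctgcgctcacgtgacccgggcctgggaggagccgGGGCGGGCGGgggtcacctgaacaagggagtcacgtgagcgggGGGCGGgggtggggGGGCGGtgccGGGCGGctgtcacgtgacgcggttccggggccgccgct
IGFBP3 held 2 GC boxes and no TATAAA, IGFBP4 held 1 GC box and a TATAAA that starts 29 bases before the annotated start, and IGF2R held 6 GC boxes and no TATAAA. Overlapping matches were each counted, as in the longest capital stretch of IGF2R. Over all 35116 windows of that length, 42.6% held a GC box and 10.7% a TATAAA, and 2.22% had 6 or more GC boxes. The pair CG occurred 32 times in the window of IGFBP3, 24 times in that of IGFBP4 and 33 times in that of IGF2R, against a median of 11. Of the 10 members, 8 had a window in the table. These letters are a description of the windows, and no binding was measured.

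Of 64 other genes of the pathway, 47 had a kept probe, each represented by its brightest. With hsa-miR-205-5p, 4 fell and 2 rose (limma), where 7.98% of all genes tested fell and 4.79% rose, and the median log2 fold change of the 47 was 0.03 against 0.08 over all genes. Among ligands, IGF1 had no probe well above background on any array, and IGF2 was measured at 1.76 and 1.13 in the scrambled control and 2.02 and 1.72 with hsa-miR-205-5p, a log2 fold change of 0.42 (limma, adjusted p = 0.284). The insulin receptor INSR had a log2 fold change of −0.16 (limma, adjusted p = 0.523). Of the 4 adaptors tested, all lay below 0 and 1 fell. This was GRB2, which joins receptors to the RAS pathway and went from 3.65 and 3.95 in the control to 2.26 and 2.08, a log2 fold change of −1.63 (standard error 0.18, limma, adjusted p = 0.00914). IRS1 had a log2 fold change of −1.0 with an adjusted p of 0.0736 (limma), while the other probe of the gene gave 0.33.
None of the 13 kinase and mTOR complex genes was called. Among 12 brakes on the pathway, INPPL1, a lipid phosphatase, fell by 1.36 on the log2 scale (limma, adjusted p = 0.00914) and its second probe had a log2 fold change of −1.26. PHLDA3, which competes with AKT for membrane lipids, fell from 2.87 and 2.78 to 1.70 and 1.76 (limma, adjusted p = 0.0147). SOCS1, a suppressor of cytokine and insulin signaling, rose from 0.06 and −0.06 to 1.24 and 1.30, a log2 fold change of 1.27 (limma, adjusted p = 0.0133). None of the 5 FOXO and GSK3 genes and none of the 5 IGFBP proteases tested was called, PAPPA among them. The inhibitors of these proteases had no probe well above background on any array and were not tested. Of 6 tested genes whose proteins carry an IGFBP-like domain, CCN2 rose from 2.00 and 2.46 to 3.67 and 3.76, a log2 fold change of 1.49 (limma, adjusted p = 0.0125), and CCN5 fell by 1.28 (limma, adjusted p = 0.0311). With hsa-miR-214-3p, limma called 0 of the 47 genes, with 1 higher at an unadjusted p and 1 by the methods' t-test, and their median log2 fold change was 0.18 against −0.01 over all genes, of which 1.09% were called higher and 2.02% lower. No probe was called in this comparison by the fit on only the 4 arrays compared, so the shares rest on the fit over all 6. Set against hsa-miR-214-3p, hsa-miR-205-5p had 6 of the 47 lower (SHC1, GRB2, INPPL1, PHLDA3, FOXO4 and CCN5) and 4 higher (RPTOR, SOCS2, PAPPA and CCN2), where 11.3% of all genes tested were lower and 9.19% higher (limma). With hsa-miR-205-5p no array had FOXO4 well above background, so its difference is only bounded, at least 1.56-fold lower. That bound is under the 2-fold limit, so the place of FOXO4 among the 6 rests on values not well above background. These genes, as PAPPA above, are named after their values were seen. For the adaptor SHC1 the difference was −1.56 (standard error 0.19, limma, adjusted p = 0.0060).

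**Figure D4:**
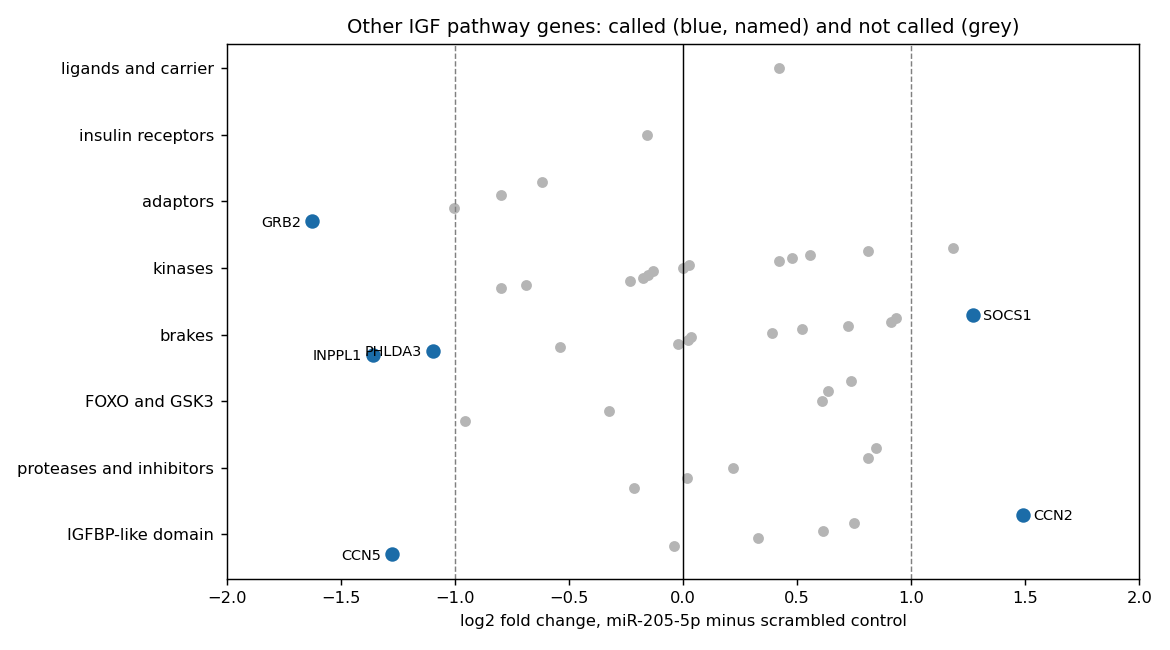
Log2 fold change with hsa-miR-205-5p against the scrambled control (horizontal axis, dashed lines at 2-fold) of the 47 other pathway genes tested, in rows by role. Blue named points passed the limma test and grey points did not; calls fall on both sides, with GRB2 lowest and CCN2 highest.

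The genes most like IGFBP3 over the 6 arrays were sought among 10218 genes well above background on all of them. Each gene was centred on its own mean, and likeness was taken as the root mean square of the differences from IGFBP3, and a flat gene would differ from IGFBP3 by 1.02. SYT15 was the nearest, at 0.16, with 2.83 and 2.92 on the hsa-miR-214-3p arrays and values from 0.76 to 0.98 on the others. MARCHF3 followed at 0.22, FGFR3 at 0.28, DSTYK at 0.28 and COL4A1 at 0.33. The other members were farther away, from 0.73 for IGFBP1 to 1.04 for IRS2. All these genes share the same 6 arrays, and the order is a description.

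**Figure D5:**
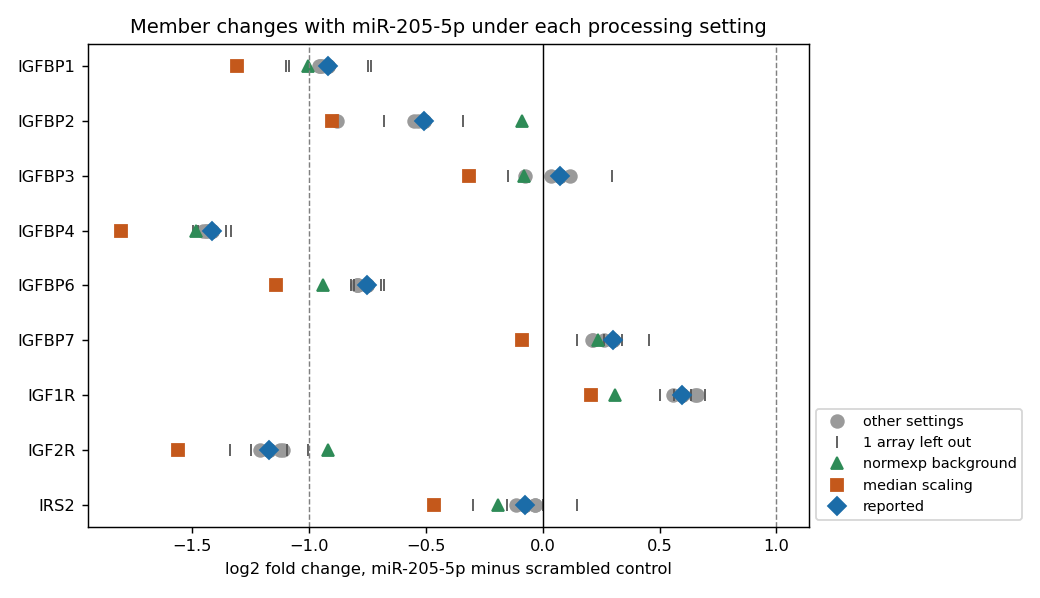
Log2 fold change of each member with hsa-miR-205-5p against the scrambled control (horizontal axis, dashed lines at 2-fold) as reported (blue diamond), under median scaling (square), with normexp background correction (triangle), with 1 array left out (ticks) and under the other settings (grey points). IGFBP4 stays past the 2-fold line under every setting drawn, from −1.81 to −1.33, while IGFBP3, IGFBP7 and IRS2 fall on both sides of 0.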

How the data were processed

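RNA from 6 samples was hybridized to 1-colour Agilent human gene expression arrays, and the authors read them with Agilent Feature Extraction 11.0. The deposited scanner files give a processed intensity per spot, background-subtracted by that software, with flags for spots well above background, saturated or outlying. A deposited table of normalized log2 values of the same arrays served as an alternative. Its direction follows the signal. Its 6 columns hold the same sorted values, as quantile normalization leaves them, so it is close to that alternative.
Here, outlier and control spots were left out, spots of a probe were averaged on the log2 scale and each array's 75th percentile was subtracted. Of 50599 probes, 18464 were kept, those that in some group passed the background flag on each of its arrays. limma 3.58.1 in R 4.3.3 was fitted to all 6 arrays, and probes were called at a p under 0.05 after Benjamini-Hochberg adjustment over all kept probes, if the groups also differed 2-fold or more. The fit had 3 residual degrees of freedom, and 2 arrays per group limit the precision of every value.
Probes were named by accession through RefSeq (GRCh38.p14). For pathway genes with several kept probes the brightest was used. The genes named are all members, IGF1, IGF2, INSR and IRS1, up to 5 called pathway genes in each direction for each precursor against the control, taken by size of change, and the 5 genes nearest to IGFBP3. Cell line markers are also named, and pathway genes outside this rule are marked in the text. The members and lists were chosen with earlier results of these data known. The scripts were tested on simulated data. For hsa-miR-205-5p against the control, 41 of 100 simulated 3-fold changes were recovered and 80 of 100 of 6-fold, with 6 false calls each. Alternatives covered background correction, scaling, filters, the fit, the methods' t-test and each array left out. With an array left out, its group has 1 array, which limma assumes to vary like the other groups, so calls lost or gained there rest on that assumption. normexp used the median signal of each spot. All arrays lay on 1 slide, so slide could not be a block.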

Additional observations from a re-analysis of the deposited data

How the results depend on the processing

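IGFBP4 and IGF2R kept their direction with hsa-miR-205-5p against the control under every alternative run, from −1.81 to −1.33 and from −1.56 to −0.92 on the log2 scale. The count of members called lower, 2, became 4 under median scaling, 4 with no fold limit, 1 with only the 4 arrays compared and 0 with no filter, and it ran from 0 to 3 with each array left out, 0 without hsa-miR-205-5p replicate 2 and 1 without either hsa-miR-214-3p array. Probes called lower over the whole array moved too, from 1486 to 2915, 2042, 598 and, of 50588, 294 in the first 4 settings, in that order. IGFBP1 was called with normexp (−1.0) and under median scaling (−1.31), and IGFBP6 under median scaling (−1.14). Without scrambled control replicate 2, IGFBP1 was at −1.09. IGFBP1 no longer passed the adjusted p with the replicate number as a block (limma, 0.0527), only the 4 arrays compared (0.103) or no filter (0.0815). IGFBP6 did not pass it with no filter (limma, 0.0815). Without IGFBP3, the 2 members lower than with hsa-miR-214-3p became 4 with no fold limit and 1 with no filter, and ran from 0 to 2 with each array left out (0 without either hsa-miR-214-3p array).
Of the pathway genes, 4 were called lower, and this became 9 under median scaling, 0 with no filter, 2 with only the 4 arrays and 7 with no fold limit, and ran from 0 to 6 with each array left out (0 without hsa-miR-205-5p replicate 2, 2 without its replicate 1 or either hsa-miR-214-3p array). The 2 called higher became 1 with normexp, 1 under median scaling, 0 with no filter and 8 with no fold limit, and ran from 0 to 4 (0 without either hsa-miR-205-5p array, 4 without scrambled control replicate 2).
Signs turned in members that were not called. IGFBP3 with hsa-miR-205-5p against the control was −0.082 with normexp, −0.32 under median scaling and −0.076 in the deposited table, and ran from −0.15 without scrambled control replicate 1 to 0.30 without its replicate 2. IGFBP7 under median scaling was −0.089 against the control and −0.14 against hsa-miR-214-3p. IRS2 against hsa-miR-214-3p was −0.017 with normexp, −0.19 under median scaling, −0.044 without hsa-miR-205-5p replicate 1 and −0.020 without hsa-miR-214-3p replicate 2. Against the control it was 0.0014 without hsa-miR-205-5p replicate 2, and ran from −0.30 without scrambled control replicate 1 to 0.15 without its replicate 2. The signs of IGFBP2, IGFBP6 and IRS2 with hsa-miR-214-3p also turned. The cause was not tested.
Median scaling moved the median log2 fold change of all kept probes from 0.05 to −0.34, and the share of calls that were lower from 66.0% to 91.4% (85.0% with normexp). With the replicate number as a block, limma called 1318 probes lower and 656 higher with hsa-miR-205-5p, against 1486 and 764, and 2 members. With hsa-miR-214-3p against the control the 310 probes called lower and 183 higher became 0 and 0 with that block, with only the 4 arrays, with no filter and without any array but scrambled control replicate 2 (710 and 1064). Replicate differences of the groups correlated at 0.0079, −0.05 and 0.11, so the numbers did not pair the arrays. Signal over background limits IGFBP5.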
